A study of Mus musculus with 33 samples.

Results

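The comparison described here sets mammary hyperplasia of 6-week-old PTHrP WT tumor mice against mammary glands of tumor-free PTHrP WT mice of the same age, the earliest stage of the series. The labels place 3 libraries in the tumor group and 2 in the gland group, 5 of the 33 libraries of the series, each from a mouse of its own. All 5 mice carried intact Pthrp alleles (Pthrp wt/wt), an MMTV-Cre transgene and the mTmG reporter, in which Cre switches a membrane-bound tdTomato to a membrane-bound GFP. The tumor mice carried the PyMT oncogene under the MMTV promoter in addition, and the tumor-free mice did not. The PyMT and Cre lines were on an FVB/NJ background. The tissue was digested, the cells were kept for 48 h in serum-containing medium, and GFP+ cells were sorted before total RNA was depleted of rRNA and sequenced. What was measured is therefore the RNA of cultured cells with a history of MMTV-Cre activity, and not of the intact tissue. The MMTV promoter drove both the oncogene and the Cre, and the oncogene and the lesion come together in every tumor mouse, so their parts cannot be told apart. In such bulk samples fewer cells of a type and less RNA per cell cannot be told apart.

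Mammary ducts have an inner luminal layer, with hormone-sensing cells that carry estrogen and progesterone receptors and progenitor or alveolar cells that can make milk proteins, and an outer basal layer of contractile myoepithelial cells resting on a basement membrane. Hormone-sensing cells act on their neighbours in part through secreted factors such as Wnt ligands. PyMT is a membrane-bound viral protein that recruits Src, Shc and phosphatidylinositol 3-kinase, and in mice it drives lesions that pass from hyperplasia to carcinoma.

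The 5 libraries held 31642985 to 72633074 counted reads, with tumor replicate 3 the shallowest. Levels are given as CPM, the reads of a gene scaled by the TMM-adjusted library size, and they are not per length, so they compare libraries and not genes. Levels stand in the order of tumor replicates 1, 2 and 3 and then gland replicates 1 and 2. The glands differed from each other (SD of the log2 difference over 13190 genes 0.509) more than any pair of tumors did (0.325 to 0.441). Gland replicate 2 stood apart by the markers of several cell types. Of 20 fibroblast markers 17 were higher in gland replicate 2 than in gland replicate 1, and 9 of them over 4-fold. The same direction held for 17 of 18 endothelial markers (0 over 4-fold) and 16 of 18 macrophage markers. Luminal lists were higher in this gland as well, with 19 of 20 hormone-sensing markers (4 over 4-fold) and 16 of 20 progenitor and alveolar markers (0 over 4-fold), against 14 of 30 basal markers. Dcn, a collagen-binding proteoglycan of fibroblasts, had 1.77, 0.461 and 0.264 CPM in the tumors and 0.317 and 22.3 CPM in the glands, and Lyz2, a macrophage lysozyme, had tumor levels of 1.46, 0.905 and 0.528 CPM and gland levels of 0.724 and 9.81 CPM. The part of these cells in the results was not tested, and each paragraph on a list gives the count of calls without gland replicate 2, with gland replicate 1 as the only gland. All such counts are from edgeR's quasi-likelihood test, since DESeq2 was run on all libraries only. Omitting this gland cost the most calls of any library over all genes.

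The transgene row was read first, as a check of the labels. PyMT had 865, 626 and 107 reads in the tumors (11.4, 10.7 and 3.14 CPM) and 0 reads in both glands, where a count of 0 allows up to 3 reads. Tumor replicate 3 thus held the least oncogene RNA. The recombined reporter (EGFP row) stood at 543, 417 and 318 CPM in the tumors and 860 and 439 CPM in the glands, and the tdTomato row at 90.5, 90.3 and 96.3 CPM against 94.5 and 45.7 CPM. Epithelial markers were present in all 5 libraries. Epcam, an epithelial adhesion protein, had 862, 821 and 864 CPM against gland levels of 793 and 939 CPM, and the groups overlapped. Krt8, a luminal keratin, had 4068, 4431 and 3865 CPM against 3776 and 2955 CPM, and Krt18, its partner, had 3561, 3572 and 3499.8 CPM in hyperplasia against 2578 and 2031 CPM in glands. The tumors lay above the glands for both keratins without passing the test (log2 fold change 0.29, SE 0.29, adjusted p = 0.671; log2 fold change 0.62, SE 0.27, adjusted p = 0.254). Krt14, a basal keratin, had 955, 1159 and 794 CPM in the tumors and 1473 and 1241 CPM in the glands, and Cdh1, the E-cadherin gene, had tumor levels of 670.2, 672 and 654 CPM and gland levels of 785 and 778 CPM, and neither was called. Pthlh, which encodes PTHrP, had 2.69, 6.67 and 2.85 CPM against gland levels of 6.06 and 2.93 CPM, and the groups overlapped (log2 fold change -0.14, SE 0.41, adjusted p = 0.929).

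Of 36527 genes tested, 2139 (5.86%) were differentially expressed (DEGs) at a fold change over 1.5 and an adjusted p under 0.1 in edgeR's quasi-likelihood test. In the tumors 849 genes were higher (2.32% of all tested) and 1290 were lower (3.53%). All 3 tumors lay above both glands for 13.9% of all genes and below both for 17.4%, which is the background for the statements on overlap that follow. Protein-coding genes made up most DEGs, with 716 higher and 1149 lower of 19970 tested (9.34%, the background for the lists that follow), and lncRNA genes gave 65 higher and 58 lower of 7044. The lower protein-coding DEGs had the larger changes, with a median log2 fold change of -2.03 against 1.51 for the higher ones. A change of over 4-fold was seen for 581 lower and 220 higher protein-coding DEGs. Without gland replicate 2 the number of DEGs was 494, of which 477 were among the 2139, with the remaining gland assumed to vary like the other groups.

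**Figure D1:**
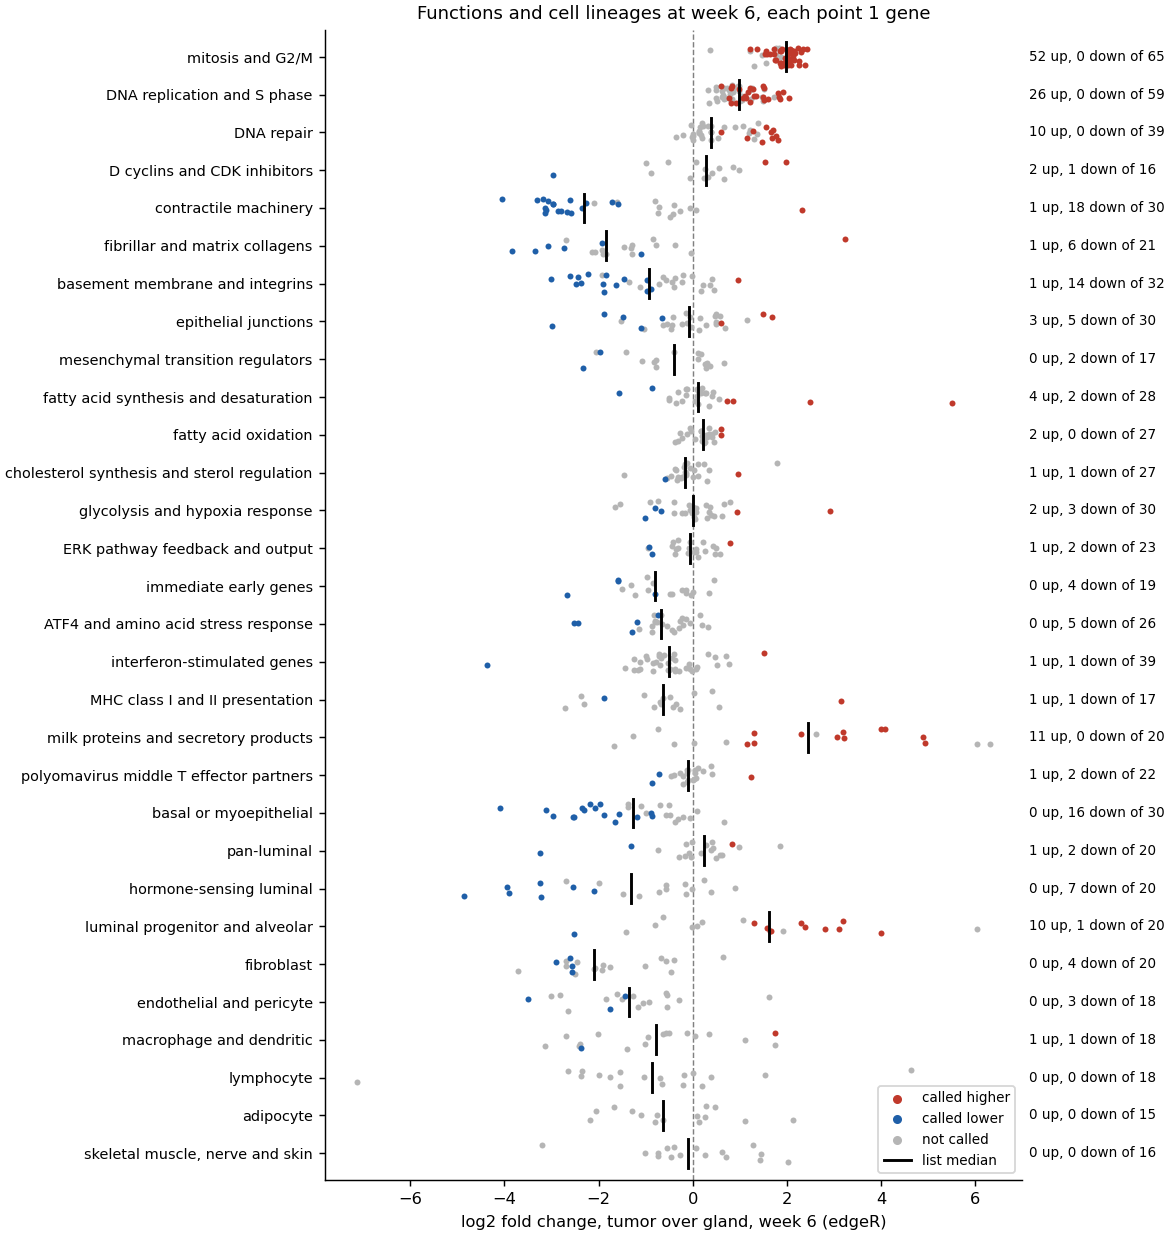
Log2 fold change (tumor over gland, edgeR) of every tested gene in 30 lists of functions and cell lineages, 1 point per gene, with the list median as a black bar and the calls as colours. All 65 mitosis genes sit to the right of 0 around a median of 1.97, and contractile, matrix and basal genes sit mostly to the left. Folds of genes with few or no reads in 1 group depend on the prior count.

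Most genes of mitosis were higher in the hyperplasia. Of 65 genes with a role in G2 and M phase, 52 were higher and 13 did not pass (0 were lower, also at an unadjusted p under 0.05 and by DESeq2), and all 3 tumors lay above both glands for 65 of 65. The list's median log2 fold change was 1.97, against 0.00 over all genes tested. Ska1, a part of the complex that holds kinetochores on microtubules, had 6.73, 8.77 and 7.6 CPM against 1.45 and 1.4 CPM (log2 fold change 2.43, SE 0.59, adjusted p = 0.0173). Ncapd2, a condensin subunit, had 100.1, 117 and 103 CPM in hyperplasia against 40.9 and 31.9 CPM in glands (log2 fold change 1.55, SE 0.40, adjusted p = 0.0228). Ect2, which activates RhoA for cytokinesis, had 92.2, 99.7 and 95.5 CPM in the tumors and 30 and 13.7 CPM in the glands (log2 fold change 2.13, SE 0.55, adjusted p = 0.0237). In each of these the tumors were close to each other and the glands lay well below, with gland replicate 2 the lower of the pair. Stmn1, which destabilises microtubules, had tumor levels of 88.3, 91.1 and 88.5 CPM and gland levels of 47.2 and 30 CPM (log2 fold change 1.21, SE 0.30, adjusted p = 0.02). Mki67, the Ki-67 antigen, had 167, 258 and 208 CPM against gland levels of 62.9 and 46.8 CPM (log2 fold change 1.94, SE 0.62, adjusted p = 0.0806). Top2a, which untangles DNA, Cdk1, the mitotic kinase, and its cyclins Ccnb1 and Ccna2 had log2 fold changes of 2.08, 2.08, 2.17 and 2.10, all of them called.

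The number of mitosis calls moved with single libraries. With gland replicate 1 as the only gland the median of the list was 1.575, and edgeR's quasi-likelihood test called 0 of 65 genes, with 22 at an unadjusted p under 0.05. With gland replicate 2 as the only gland the median was 2.49 and 13 genes were called. Leaving out 1 tumor left 15, 7 and 29 genes called (replicates 1, 2 and 3). DESeq2 on all libraries called 63. The median stayed above 0 in each of these fits. The summed level of the list was 4165, 4970 and 4402 CPM in the tumors and 1628 and 903 CPM in the glands, so the tumors were alike and the glands were not.

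Cell cycle genes of this phase are known to share promoter elements, the cell cycle genes homology region (CHR, searched as TTTGAA or TTCGAA) and the CCAAT box (CCAAT). Both were searched on either strand of RefSeq promoter windows of GRCm38.p6, from 250 bases before to 50 bases after each start, and 52 of the 65 genes had a window. A CHR element was found for 38 of the 52 (73.1%), against 21.7% of all 27025 genes with a window. A CCAAT box was found for 73.1% against 41.1%. A match is only a description of the letters, and motifs could overlap at their ends. The windows of Ncapd2 (chr6:125191537-125191836, minus strand) and Ect2 (chr3:27153829-27154128, minus strand) are shown with CHR elements and CCAAT boxes in capitals, 5′ to 3′. Both were picked for a low adjusted p from called genes whose window held both elements. They are therefore examples by choice, and their matches are no result.
Ncapd2: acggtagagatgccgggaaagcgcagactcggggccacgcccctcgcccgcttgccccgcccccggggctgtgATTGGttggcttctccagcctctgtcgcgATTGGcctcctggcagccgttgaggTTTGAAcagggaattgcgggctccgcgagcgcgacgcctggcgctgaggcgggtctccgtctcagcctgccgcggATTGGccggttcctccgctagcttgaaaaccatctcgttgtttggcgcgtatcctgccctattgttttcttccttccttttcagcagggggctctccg
Ect2: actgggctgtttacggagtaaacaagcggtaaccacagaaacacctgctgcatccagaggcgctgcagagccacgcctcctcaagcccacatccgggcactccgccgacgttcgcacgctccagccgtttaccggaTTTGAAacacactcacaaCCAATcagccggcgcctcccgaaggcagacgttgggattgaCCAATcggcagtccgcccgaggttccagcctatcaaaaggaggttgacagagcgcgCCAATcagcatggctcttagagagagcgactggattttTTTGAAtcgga
In the Ncapd2 window the CHR element began 123 bases before the start, between the second and the third of 3 CCAAT boxes, which began 177, 148 and 48 bases before it. The Ect2 window held a CHR element that began 114 bases before the start with CCAAT boxes that began 96 and 55 bases before it, and 1 more of each after the start.

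Of 59 genes of DNA replication and S phase, 26 were higher and 33 did not pass (0 were lower, also at an unadjusted p under 0.05 and by DESeq2), with a median log2 fold change of 0.99, and all 3 tumors lay above both glands for 58. Mcm7, a subunit of the replicative helicase, had 151, 174 and 145 CPM against 86.4 and 72.2 CPM (log2 fold change 0.98, SE 0.24, adjusted p = 0.0188). Tk1, the thymidine kinase of S phase, had 41.6, 56.3 and 44.7 CPM in hyperplasia against 17.9 and 8.77 CPM in glands (log2 fold change 1.84, SE 0.50, adjusted p = 0.0328). Fen1, the flap endonuclease of lagging-strand synthesis, had 70.4, 86 and 66.6 CPM in the tumors and 39.4 and 26.2 CPM in the glands (log2 fold change 1.18, SE 0.32, adjusted p = 0.0344). Rfc3, of the clamp loader, had tumor levels of 30.1, 36.7 and 28.1 CPM and gland levels of 18.3 and 17.6 CPM (log2 fold change 0.82, SE 0.21, adjusted p = 0.0222). The glands lay below all tumors in these 4 genes. Leaving out gland replicate 2 left 0 of the 59 called (13 at an unadjusted p under 0.05). Without tumor replicate 2 there was 1 call and without gland replicate 1 there were 16, while DESeq2 on all libraries called 43. An E2F site (TTTGGCGC, TTTCGCGC, TTTGGCGG or TTTCCCGC) was present for 21 of the 46 replication genes with a window (45.7%), against 2.7% of all genes, and for 7.69% of the mitosis genes. The Mcm7 window (chr5:138171834-138172133, minus strand, GRCm38.p6) is shown with its E2F sites in capitals. Mcm7 was picked in the same way, from called genes whose window held such a site.
Mcm7: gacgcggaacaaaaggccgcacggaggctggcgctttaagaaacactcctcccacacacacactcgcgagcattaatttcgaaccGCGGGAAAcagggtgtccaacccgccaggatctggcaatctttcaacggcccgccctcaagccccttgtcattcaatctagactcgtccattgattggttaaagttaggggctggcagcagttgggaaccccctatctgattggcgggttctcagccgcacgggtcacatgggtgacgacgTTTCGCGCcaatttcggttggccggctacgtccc

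DNA repair genes were called higher in 10 of 39 cases (median log2 fold change 0.39). Chek2, a checkpoint kinase, had 14, 14.7 and 13.8 CPM against gland levels of 6.52 and 6.18 CPM (log2 fold change 1.16, SE 0.26, adjusted p = 0.00917), and the tumors lay close together above the glands. Rad54b, a helicase of homologous recombination, had 9.07, 11.9 and 11.7 CPM against 3.98 and 2.22 CPM (log2 fold change 1.81, SE 0.47, adjusted p = 0.0274). Parp1, which senses DNA breaks, changed less, with 121, 128 and 109 CPM in hyperplasia against 79.7 and 78.7 CPM in glands (log2 fold change 0.59, SE 0.15, adjusted p = 0.0268). Brca1, Brip1, Fancd2 and Fanci were among the 10. Without the second gland the test called 0 of them, with 9 of the list higher at an unadjusted p under 0.05. Without tumor replicates 1 or 2 it called 6 and 2, and DESeq2 on all libraries called 14.

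The D cyclins and CDK inhibitors moved gene by gene, 2 higher and 1 lower of 16. Ccnd2, a cyclin of G1 phase, had 7.84, 3.62 and 15.3 CPM in the tumors and 86.9 and 52.4 CPM in the glands (log2 fold change -2.97, SE 0.51, adjusted p = 0.0012) and was lower in every fit that left out a library. Ccnd1 had tumor levels of 275, 382 and 308 CPM and gland levels of 377 and 235 CPM, with the groups overlapping (log2 fold change 0.07, SE 0.47, adjusted p = 0.996). Cdkn1c, the p57 inhibitor, had 5.03, 4.34 and 2.67 CPM against gland levels of 1.15 and 0.893 CPM (log2 fold change 1.98, SE 0.40, adjusted p = 0.00473). Cdkn2c, the p18 inhibitor, had 13.2, 16 and 12.8 CPM against 5.75 and 3.95 CPM (log2 fold change 1.53, SE 0.37, adjusted p = 0.0172). Both inhibitors lay above the glands in all 3 tumors, but neither kept its call without gland replicate 2, where 0 of the list were higher (3 at an unadjusted p under 0.05).

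**Figure D2:**
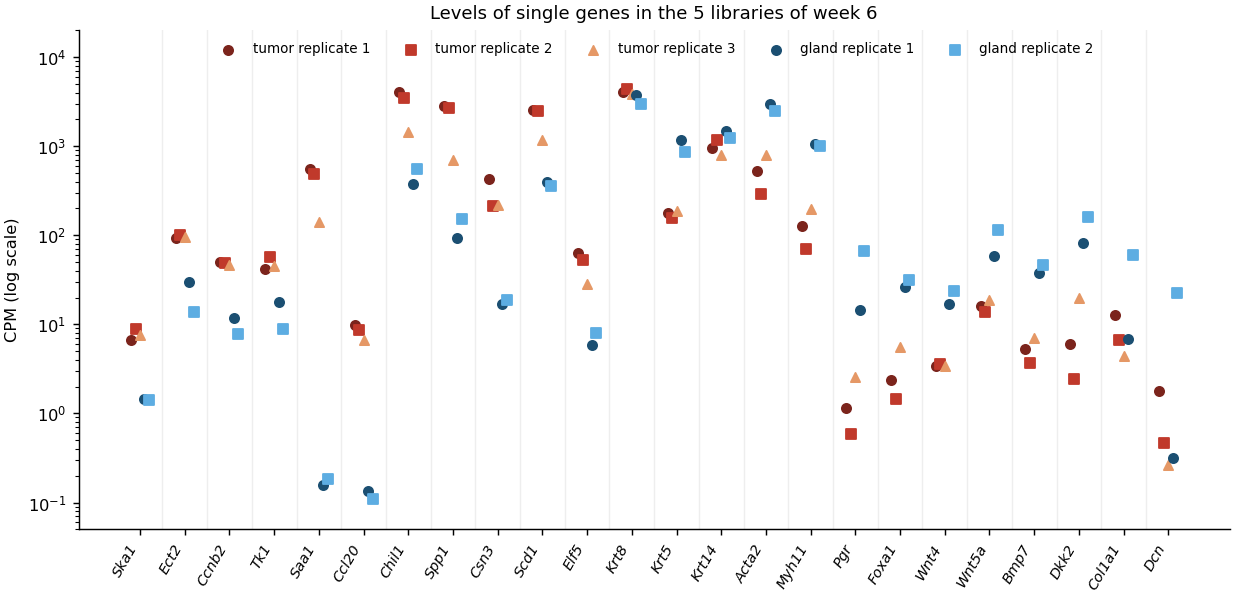
CPM on a log axis of 24 genes in each of the 5 libraries of week 6 (circles, squares and triangles for replicates 1, 2 and 3, reds for tumors, blues for glands). The 3 tumors lie above both glands for the mitotic, acute-phase, milk and lipid genes on the left up to Elf5 and below both from Krt5 to Dkk2, while Col1a1 and Dcn stand out only in gland replicate 2.

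Week 6 was set against the later stages of the same genotype. The tumor effect at week 6 minus the mean effect at weeks 8 and 10 was tested over all genes, and edgeR's quasi-likelihood test called 0 genes (0% of 36527), with 1549 at an unadjusted p under 0.05, while DESeq2 called 3. For the mitosis list the median effect was 1.97 at week 6, 0.60 at week 8 and 0.36 at week 10, and the difference was positive for 65 of 65 genes, 28 of them at an unadjusted p under 0.05. The S phase list had medians of 0.99, 0.27 and 0.05, and its difference was positive for 59 of 59. No single gene of either list passed the test of the difference. The mitosis list's level in the glands of week 6 enters this difference as much as its level in the tumors. With all 8 WT glands of weeks 6 to 12 as the control, the median of the list at week 6 was 1.15 and 46 genes were called higher.

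**Figure D3:**
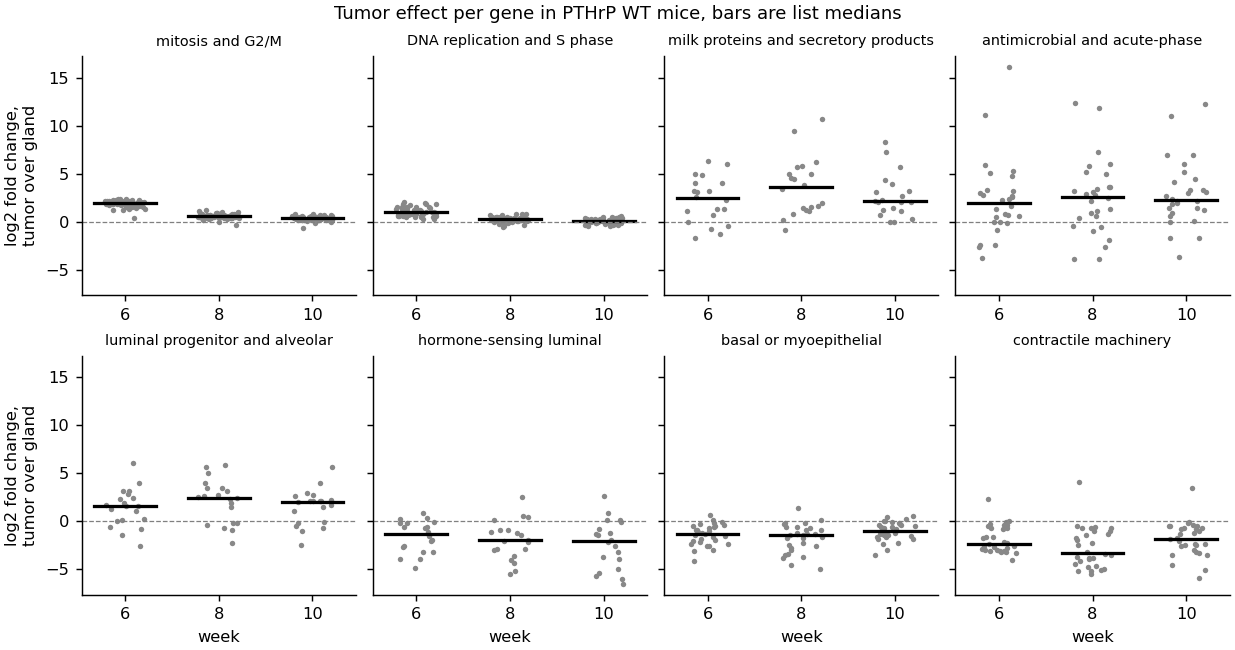
Log2 fold change of tumors over age-matched glands at weeks 6, 8 and 10 in PTHrP WT mice, 1 point per gene and 1 panel per list, with the list median as a bar. The mitosis median goes from 1.97 to 0.60 and 0.36, while the milk, acute-phase, luminal progenitor, hormone-sensing, basal and contractile medians keep their sign at all 3 weeks.

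Genes of luminal progenitors and alveolar cells gave 10 higher and 1 lower of 20, with 9 that did not pass (median log2 fold change 1.61). Elf5, a transcription factor of the alveolar lineage, had 63.3, 53 and 28.6 CPM in hyperplasia against 5.79 and 8 CPM in glands (log2 fold change 2.81, SE 0.47, adjusted p = 0.00102). Csn3, the kappa-casein gene, had 426, 215 and 216 CPM in the tumors and 16.8 and 18.7 CPM in the glands (log2 fold change 4.01, SE 0.55, adjusted p = 0.000211). Tumor replicate 1 was the highest for both, and tumor replicate 3, with the least PyMT RNA, was the lowest for Elf5 and level with replicate 2 for Csn3. Cp, which encodes the copper carrier ceruloplasmin, had tumor levels of 2188, 1352 and 1811 CPM and gland levels of 582 and 545 CPM (log2 fold change 1.66, SE 0.31, adjusted p = 0.00242). Lcn2, an iron-siderophore binding lipocalin, had 3259, 2202 and 1939.5 CPM against gland levels of 539 and 468 CPM (log2 fold change 2.29, SE 0.35, adjusted p = 0.000468). Tspan8, a tetraspanin that also stands on the basal list, went the other way (log2 fold change -2.52, SE 0.77, adjusted p = 0.0629). Kit, a receptor of progenitors, had 33.2, 20.1 and 13.7 CPM against 15.8 and 26.1 CPM. Stat5a, the prolactin-activated factor, had 20.9, 18.6 and 15.1 CPM in hyperplasia against 21.2 and 42.2 CPM in glands, and neither was called. On gland replicate 1 alone, 6 genes of the list were called higher and the median was 1.665, and on gland replicate 2 alone 5 were. Tspan8 was called in the second of these fits and in no other that left out a library.

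Milk proteins and other secretory products formed the list with the highest median in the main fit, 2.45, with 11 of 20 genes higher. Without gland replicate 1 the mitosis list ranked above it (medians 2.49 and 2.47). Beside Csn3 and Lcn2, Muc15, a mucin of the milk fat globule, had 6.89, 9.13 and 4.08 CPM in the tumors and 0.792 and 0.802 CPM in the glands (log2 fold change 3.07, SE 0.53, adjusted p = 0.00132). Spp1, the osteopontin gene, had tumor levels of 2854, 2692 and 691 CPM and gland levels of 93.9 and 151 CPM (log2 fold change 4.08, SE 0.80, adjusted p = 0.00373), with tumor replicates 1 and 2 far above replicate 3 and replicate 3 above both glands. The major milk genes stayed low in absolute level: Csn1s1 had 3.28, 4.1 and 2.2 CPM against gland levels of 0.158 and 0.0547 CPM, Lalba had 1.41, 1.83 and 0.528 CPM against 0.0679 and 0.0182 CPM, and Csn2, which did not pass (adjusted p = 0.219), had 0.818, 1.11 and 0.47 CPM in hyperplasia against 0 and 0.0182 CPM in glands. Lalba and Csn2 had at most 3 reads in either gland. These genes separated tumors from glands at levels of a few CPM or less. Plin2, which coats lipid droplets, and Btn1a1 of the milk fat globule had log2 fold changes of 1.14 and 1.30 (SE 0.27 and 0.26). With gland replicate 1 as the only gland 4 genes were called, Csn3, Lcn2, Muc15 and Spp1, and the median was 2.64. Without tumor replicate 2 there were 7 and without gland replicate 1 there were 6.

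Antimicrobial and acute-phase genes, which epithelia are known to make under inflammatory signals, gave 13 higher and 2 lower of 28 (median log2 fold change 1.98). Saa1 and Saa2, neighbouring serum amyloid A genes (chr7:46740497-46742980 and chr7:46751790-46754313, GRCm38), were nearly absent from the glands. Saa1 had 560.3, 490.2 and 142 CPM in the tumors and 0.158 and 0.182 CPM in the glands (log2 fold change 11.16, SE 1.36, adjusted p = 7.29e-05). Saa2 had tumor levels of 229.7, 218 and 59.5 CPM and gland levels of 0 and 0 CPM and was at least 2757-fold higher in the tumors when 3 reads per library are set for the glands. These genes are near-identical in sequence, and how reads were split between them is uncertain. Orm1 and Orm2, orosomucoids and also close copies of each other, were low in the glands too. Orm1 had 6.45, 11.1 and 3.61 CPM against gland levels of 0.0226 and 0.31 CPM (log2 fold change 5.32, SE 0.81, adjusted p = 0.000468). Orm2 had 2.88, 6.74 and 1.56 CPM against 0.0905 and 0.0365 CPM (log2 fold change 5.88, SE 0.83, adjusted p = 0.000263). In all 4 genes tumor replicate 3 was the lowest tumor and still lay above the glands.

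Chil1, a chitinase-like glycoprotein, had 4063, 3482 and 1453 CPM in hyperplasia against 372 and 548 CPM in glands (log2 fold change 2.70, SE 0.60, adjusted p = 0.00947). S100a8, a calgranulin subunit, had 70.8, 62.7 and 20.3 CPM in the tumors and 1.22 and 2.35 CPM in the glands (log2 fold change 4.83, SE 0.89, adjusted p = 0.00208). Cfb, factor B of the alternative complement pathway, had tumor levels of 27.3, 22.4 and 16.4 CPM and gland levels of 2.72 and 2.82 CPM (log2 fold change 2.99, SE 0.61, adjusted p = 0.00517), and Lbp, the lipopolysaccharide binding protein, had a log2 fold change of 2.76. For all of these the glands lay below the lowest tumor. Pglyrp1, a peptidoglycan binding protein, was called (log2 fold change 3.35, SE 0.93, adjusted p = 0.0396) although gland replicate 2 lay at the level of tumor replicate 3 (15.9, 21.1 and 1.94 CPM against gland levels of 0.52 and 2 CPM). The 2 lower genes were at low levels, Defb1, an epithelial defensin, with 0.198, 0.683 and 0.352 CPM against 1.95 and 2.42 CPM, and Reg3g, a lectin. Reg3g had 0.132, 0.0171 and 0.117 CPM in hyperplasia against 0.317 and 0.802 CPM in glands. Reg3b, a related lectin outside the list, had 0.0923, 0.0341 and 0.0293 CPM in the tumors and 1.74 and 6.85 CPM in the glands (log2 fold change -6.18, SE 0.98, adjusted p = 0.000602). Leaving out gland replicate 2 left 7 of the list called higher, with Saa1, Saa2, Orm1, Orm2 and S100a8 among them and Chil1, Cfb and Lbp not, and 0 called lower (1 at an unadjusted p under 0.05). Leaving out gland replicate 1 left 8 higher. Neutrophils and macrophages are known to make S100a8, Lcn2 and Chil1 too. Macrophage markers had a median of -0.79, which was 1.02 without gland replicate 2, neutrophil markers were on no list, and their part in these calls was not tested.

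**Figure D4:**
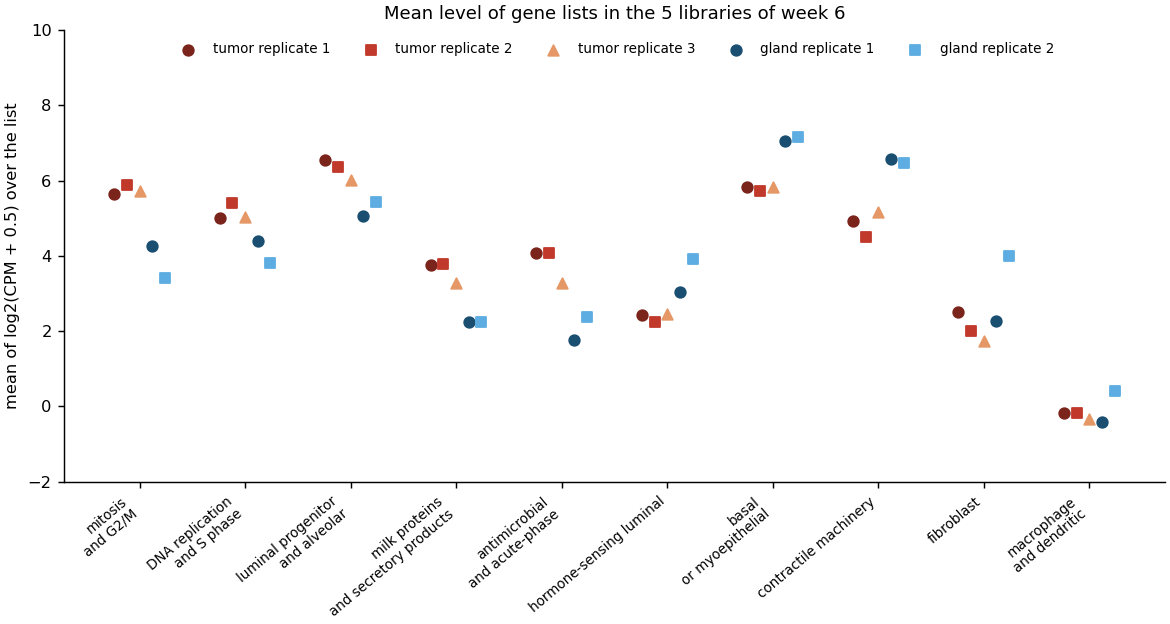
Mean of log2(CPM + 0.5) over the genes of 10 lists in each of the 5 libraries. Tumors (reds) lie above glands (blues) for the first 5 lists and below them for the hormone-sensing, basal and contractile lists, while gland replicate 2 alone stands high for the fibroblast and macrophage lists.

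Lipid genes changed singly rather than as a group. In fatty acid synthesis and desaturation 4 were higher and 2 lower of 28 (median 0.11). Scd1, the stearoyl-CoA desaturase (chr19:44394455-44407879), had tumor levels of 2567, 2502 and 1183 CPM and gland levels of 393 and 353 CPM (log2 fold change 2.48, SE 0.38, adjusted p = 0.000505) and was called in every alternative fit tried. The lncRNA gene Gm50337 lies 11731 bases away on the opposite strand (chr19:44419610-44437886) and had 0.567, 0.495 and 0.499 CPM against gland levels of 0.113 and 0.0729 CPM (log2 fold change 2.48, SE 0.56, adjusted p = 0.0112), with its highest tumor at under 1 CPM. Gm50337 was not called without gland replicate 2 (adjusted p = 0.241). Thrsp, a regulator of lipogenesis, had 3.27, 2.12 and 1.76 CPM against 0.0453 and 0.0547 CPM, with at most 3 reads in either gland, and it lay above the glands in all tumors. Core enzymes of the pathway did not pass: Fasn, fatty acid synthase, had 706, 828 and 709 CPM in hyperplasia against 695 and 690.1 CPM in glands (log2 fold change 0.11, SE 0.17, adjusted p = 0.804). Acly had 472, 479 and 487 CPM in the tumors and 468 and 435 CPM in the glands (log2 fold change 0.09, SE 0.13, adjusted p = 0.803), and Acaca, acetyl-CoA carboxylase, had a log2 fold change of 0.40. Among acyl-CoA synthetases Acsl1 and Acsl4 were higher (log2 fold changes 0.72 and 0.86) and Acsl3 lower (log2 fold change -0.87). Dgat2, the last step of triglyceride synthesis, was lower, with tumor levels of 2.36, 2.53 and 2.79 CPM and gland levels of 6.38 and 8.78 CPM (log2 fold change -1.57, SE 0.35, adjusted p = 0.0102). On gland replicate 1 alone Scd1 and Thrsp were the 2 genes called higher and 0 were lower (1 at an unadjusted p under 0.05), and on gland replicate 2 alone 2 were higher and 2 lower.

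Fatty acid oxidation and sterol genes were each called at 7.41%, under the 9.34% of all protein-coding genes, so these counts are no result about the lists. In fatty acid oxidation 2 of 27 were higher, Eci2 and Acot1 (log2 fold changes 0.59 and 0.60), with a list median of 0.23. In cholesterol synthesis and sterol regulation Dhcr7 was higher (log2 fold change 0.97) and Sqle lower (log2 fold change -0.59) of 27, with a median of -0.16. In glycolysis and the hypoxia response 2 were higher and 3 lower of 30 (median 0.01). Car12, a carbonic anhydrase of the cell surface, had 148, 236 and 32.2 CPM against gland levels of 6 and 30.4 CPM (log2 fold change 2.93, SE 0.74, adjusted p = 0.0221), and tumor replicate 3 lay just above gland replicate 2. Hif1a, the oxygen-regulated factor, had 161, 159 and 154 CPM against 238 and 315 CPM (log2 fold change -0.81, SE 0.15, adjusted p = 0.00199). P4ha1, a collagen prolyl hydroxylase, had 51.9, 48.2 and 47.9 CPM in hyperplasia against 101 and 100.0 CPM in glands (log2 fold change -1.02, SE 0.28, adjusted p = 0.0356). Of the genes of these 3 lists Car12 alone was called without gland replicate 2, and it was not called without gland replicate 1, without tumor replicate 2 or in a fit of the 5 libraries alone. Without gland replicate 2 the list medians were 0.24 (oxidation), -0.27 (sterol) and -0.07 (glycolysis). Leaving out another library gave 0 to 1 call in oxidation, 0 to 1 higher and 0 to 2 lower in sterol synthesis, and 0 to 1 higher and 1 to 2 lower in glycolysis.

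Basal genes gave 16 lower of 30, with 14 that did not pass (median log2 fold change -1.27). Krt5, a basal keratin, had 179, 157 and 187 CPM in the tumors and 1173 and 869 CPM in the glands (log2 fold change -2.55, SE 0.69, adjusted p = 0.0326), while the basal keratins Krt14 and Krt17 did not pass. Snai2, a transcription factor of basal cells, had tumor levels of 6.28, 6.96 and 5.4 CPM and gland levels of 27.6 and 20.9 CPM (log2 fold change -1.96, SE 0.44, adjusted p = 0.0102). Lgr6, an R-spondin receptor, had 28.9, 23 and 26.9 CPM against gland levels of 66.2 and 90.1 CPM (log2 fold change -1.57, SE 0.32, adjusted p = 0.00466). Pdpn, a surface sialoglycoprotein, had 14.9, 8.69 and 17.9 CPM against 74.2 and 42.8 CPM (log2 fold change -2.08, SE 0.46, adjusted p = 0.00919). Trp63, the p63 gene that defines the layer, had 41, 50.9 and 26.4 CPM in hyperplasia against 92.4 and 112 CPM in glands and lay lower in all 3 tumors without passing (log2 fold change -1.37, SE 0.52, adjusted p = 0.156). Sox10 had 242, 149.7 and 81.2 CPM in the tumors and 49.1 and 150.2 CPM in the glands and overlapped. The basal list summed to 7069, 6841 and 7434 CPM in the tumors and 15350 and 13660 CPM in the glands. With gland replicate 1 alone, 4 genes were called lower, Snai2 and Pdpn among them and Krt5 and Lgr6 not, and the median was -1.17. Pdpn was not called without gland replicate 1. Without tumor replicates 1 or 2 there were 8 and 7, and without gland replicate 1 there were 10. The groups overlapped in few members, since all 3 tumors lay below both glands for 25 of 30.

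Contractile genes, the working parts of myoepithelial and smooth muscle cells, gave 18 lower and 1 higher of 30, and their median of -2.31 was the lowest of the function lists. Acta2, smooth muscle actin, had tumor levels of 530.2, 289 and 801 CPM and gland levels of 2991 and 2500.4 CPM (log2 fold change -2.35, SE 0.68, adjusted p = 0.048). Myh11, smooth muscle myosin, had 127, 69.8 and 197 CPM against gland levels of 1048 and 1007 CPM (log2 fold change -2.97, SE 0.81, adjusted p = 0.034). Synpo2, which bundles actin, had 1.61, 1.14 and 1.91 CPM against 14 and 14 CPM (log2 fold change -3.18, SE 0.61, adjusted p = 0.00289). Trpc6, a calcium channel, had 0.528, 0.137 and 2.02 CPM in hyperplasia against 9.73 and 18.2 CPM in glands (log2 fold change -4.04, SE 0.82, adjusted p = 0.00486). Tumor replicate 2 was the lowest and replicate 3 the highest of the tumors for Acta2, Myh11 and Trpc6, and all tumors lay below both glands. Oxtr, the oxytocin receptor, had 17.3, 7.65 and 14.8 CPM in the tumors and 56.4 and 173 CPM in the glands (log2 fold change -3.12, SE 0.93, adjusted p = 0.0556). Ldb3, a Z-disc protein, was the 1 higher gene, with tumor levels of 1.71, 7.2 and 3.14 CPM and gland levels of 0.86 and 0.747 CPM (log2 fold change 2.32, SE 0.50, adjusted p = 0.00765). With gland replicate 1 alone, 6 were called lower (median -2.08), Synpo2 and Trpc6 among them and Acta2 and Myh11 not, and Ldb3 was not called. There were 9 lower without gland replicate 1, and 7, 6 and 14 without tumor replicates 1, 2 or 3.

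Smooth muscle genes are known targets of serum response factor, which binds the CArG box. This box was found in the window of 5 of 25 contractile genes (20%), against 1.81% of all genes with a window, and for 2 of the 14 genes with a window that were called lower. The window of Myl9 (chr2:156775214-156775513, plus strand, GRCm38.p6), the myosin regulatory light chain gene, shows the box in capitals 161 bases before the start. Myl9 was picked from called genes whose window held the box. Myl9 itself had 92.3, 49.9 and 112 CPM against gland levels of 469.6 and 351 CPM (log2 fold change -2.28, SE 0.68, adjusted p = 0.0558), with all 3 tumors below both glands.
Myl9: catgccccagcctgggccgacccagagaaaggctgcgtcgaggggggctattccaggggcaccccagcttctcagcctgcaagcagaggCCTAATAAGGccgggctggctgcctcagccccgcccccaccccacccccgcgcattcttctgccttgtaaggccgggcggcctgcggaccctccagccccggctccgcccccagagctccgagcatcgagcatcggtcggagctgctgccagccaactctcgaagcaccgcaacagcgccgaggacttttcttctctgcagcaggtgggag

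Genes of the basement membrane and its receptors gave 14 lower and 1 higher of 32 (median -0.93), and these calls changed little when a library was left out, with 13, 13, 14, 13 and 10 lower (tumor replicates 1 to 3 and gland replicates 1 and 2). Col4a2, a chain of type IV collagen, had 78.5, 62.5 and 132 CPM against 552 and 431 CPM (log2 fold change -2.43, SE 0.39, adjusted p = 0.000602). Lamc1, a laminin chain, had 144, 175 and 156 CPM in hyperplasia against 297 and 329 CPM in glands (log2 fold change -0.98, SE 0.18, adjusted p = 0.00199). Hspg2, perlecan, had 82.7, 91.4 and 130.2 CPM in the tumors and 444 and 501 CPM in the glands (log2 fold change -2.22, SE 0.42, adjusted p = 0.00253). Itga5, the fibronectin receptor chain, had tumor levels of 14.4, 13.1 and 28.1 CPM and gland levels of 139 and 87.3 CPM (log2 fold change -2.61, SE 0.49, adjusted p = 0.00227). The tumors lay below both glands in all of them, with tumor replicate 3 nearest to the glands for Col4a2, Hspg2 and Itga5. The laminin-332 chains Lama3 and Lamb3 and the hemidesmosome genes Itgb4 and Col17a1 were lower (log2 fold changes -1.91, -1.46, -0.89 and -2.37). Itga8 was higher, with 76.1, 89.4 and 57.9 CPM against gland levels of 33.9 and 42.5 CPM (log2 fold change 0.96, SE 0.30, adjusted p = 0.0727), a call that was kept only when tumor replicate 3 was the library left out.

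Matrix collagens gave 6 lower and 1 higher of 21 (median -1.85). Col5a3 had 13.2, 14.7 and 12 CPM against 75 and 304 CPM (log2 fold change -3.83, SE 0.55, adjusted p = 0.000277). Col15a1 had 0.528, 0.393 and 0.675 CPM in hyperplasia against 3.33 and 7.49 CPM in glands (log2 fold change -3.36, SE 0.71, adjusted p = 0.00656), while Col7a1, the anchoring fibril collagen of epithelia, had 346, 427 and 583 CPM in the tumors and 904 and 1018 CPM in the glands (log2 fold change -1.09, SE 0.28, adjusted p = 0.0242). Col9a1 was higher, with tumor levels of 13.4, 6.45 and 2.52 CPM and gland levels of 0.498 and 1.08 CPM (log2 fold change 3.24, SE 0.99, adjusted p = 0.0646). The fibroblast collagens Col1a1 (12.8, 6.69 and 4.43 CPM against gland levels of 6.79 and 60.6 CPM) and Col1a2 (10.9, 4.15 and 1.09 CPM against 4.91 and 65.6 CPM) overlapped between the groups and were high only in gland replicate 2. Matricellular proteins and glycoproteins gave 11 lower and 1 higher of 49 (median -1.27). Fbn1, a microfibril protein, had 23, 11.8 and 38.4 CPM in hyperplasia against 171 and 296 CPM in glands (log2 fold change -3.26, SE 0.69, adjusted p = 0.00656). Sparc, a collagen-binding glycoprotein, had 133, 77.3 and 175 CPM in the tumors and 716 and 729.8 CPM in the glands (log2 fold change -2.49, SE 0.63, adjusted p = 0.0223). Postn, periostin, had tumor levels of 327, 118 and 446 CPM and gland levels of 2016 and 2436 CPM (log2 fold change -2.91, SE 0.81, adjusted p = 0.0408), with both glands far above all tumors. With gland replicate 1 alone edgeR's quasi-likelihood test called 1 collagen lower, Col5a3, and 0 higher (1 at an unadjusted p under 0.05), and the collagen median was -0.9999. In the same fit 0 matricellular genes were lower (8 at an unadjusted p under 0.05) and 2 were higher, with a median of -0.65, while DESeq2 on all libraries called 15 lower and 4 higher. Leaving out tumor replicates 1 or 2 left 2 and 2 collagens and 4 and 1 matricellular genes lower.

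Hormone-sensing genes gave 7 lower of 20, and 13 did not pass (median -1.31). Pgr, the progesterone receptor, had 1.16, 0.58 and 2.58 CPM against gland levels of 14.6 and 66.4 CPM (log2 fold change -4.86, SE 0.84, adjusted p = 0.0013). Esr1, the estrogen receptor, had 4.21, 3.53 and 3.55 CPM against 9.55 and 22.7 CPM (log2 fold change -2.10, SE 0.54, adjusted p = 0.0246). The glands differed over 4-fold in Pgr and over 2-fold in Esr1, yet the lower gland lay above all tumors. Foxa1, a pioneer factor of the estrogen receptor, had 2.37, 1.45 and 5.52 CPM in hyperplasia against 26 and 31.8 CPM in glands (log2 fold change -3.24, SE 0.50, adjusted p = 0.000508). Tph1, the rate-limiting enzyme of serotonin synthesis, had 2.73, 1.69 and 5.58 CPM in the tumors and 25.6 and 36 CPM in the glands (log2 fold change -3.22, SE 0.62, adjusted p = 0.00316). Greb1, an estrogen target, had tumor levels of 0.396, 0.188 and 0.147 CPM and gland levels of 0.475 and 7.2 CPM, with gland replicate 1 close to tumor replicate 1 (log2 fold change -3.91, SE 1.02, adjusted p = 0.0259). Areg, an EGF-family ligand of these cells, had 14.8, 23.1 and 22.9 CPM against gland levels of 33.6 and 33 CPM. Prlr, the prolactin receptor, had 29.1, 28.9 and 16.2 CPM against 25 and 113 CPM, and neither passed. Without gland replicate 2 the list's median was -0.46, and the 4 genes called were Foxa1, Pgr, Tph1 and Wnt4. Without tumor replicate 2 there were 4 as well.

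Pan-luminal genes were close to 0 as a list, 1 higher and 2 lower of 20 (median 0.23). Ehf, an epithelial transcription factor, was higher (log2 fold change 0.84, SE 0.27, adjusted p = 0.0869), with 166, 125 and 111 CPM in hyperplasia against 64.9 and 85.1 CPM in glands. Krt19, a luminal keratin, was lower, with 185, 273 and 188 CPM in the tumors and 448 and 615 CPM in the glands (log2 fold change -1.30, SE 0.40, adjusted p = 0.0684), and Foxa1 was the other lower gene. Gata3, the master factor of the luminal lineage, had tumor levels of 55.6, 55.9 and 48.4 CPM and gland levels of 55.6 and 57.6 CPM, with the groups overlapping. Foxa1 was the 1 gene called without gland replicate 2, where 0 were higher (4 at an unadjusted p under 0.05), and leaving out another library gave 0 to 1 higher and 1 lower.

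Junction genes gave 3 higher and 5 lower of 30 (median -0.08). The lower genes included the desmosomal Pkp1, Dsp and Dsc3 and the P-cadherin gene Cdh3. Pkp1 had 167, 237 and 189 CPM against gland levels of 549.6 and 546 CPM (log2 fold change -1.47, SE 0.27, adjusted p = 0.00221). Cdh3 had 40.6, 45.9 and 46.3 CPM against 183 and 145 CPM (log2 fold change -1.89, SE 0.46, adjusted p = 0.0168). The connexin Gjb2 was higher, with 301, 307 and 195 CPM in hyperplasia against 115 and 51.3 CPM in glands (log2 fold change 1.69, SE 0.41, adjusted p = 0.0172), as were Gjb6 and Marveld2, the tricellulin gene. Of 17 regulators of mesenchymal transition, 2 were lower, Snai2 and Prrx1. Prrx1 had 0.989, 0.597 and 0.499 CPM in the tumors and 0.996 and 6.12 CPM in the glands, with gland replicate 1 level with tumor replicate 1. Without gland replicate 2 the lower junction genes were 3, Pkp1, Dsc3 and Cdh3 (the last not called without gland replicate 1), and 0 were higher (3 at an unadjusted p under 0.05), while Snai2 was the 1 regulator still called. Leaving out another library gave 1 to 4 higher and 4 to 5 lower junction genes.

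Markers of cells outside the epithelium were mostly low, and no list of them had more than 1 gene higher. Fibroblast markers gave 4 lower of 20 (median -2.09), and this median was 0.20 without gland replicate 2. Endothelial and pericyte markers gave 3 lower of 18 (median -1.35, and 0.34 without gland replicate 2). Macrophage and dendritic markers gave 1 higher, Aif1, and 1 lower, Itgax, of 18 (median -0.79, and 1.02 without gland replicate 2). Their summed level was 12.33, 13.96 and 10.54 CPM in the tumors and 7.74 and 26.97 CPM in the glands, and it was 1166, 878.8 and 1187 CPM against 2954 and 3429 CPM for the fibroblast list. Postn alone made up most of the fibroblast sum in both glands, while Dcn and Col1a1 were at tumor level in gland replicate 1. Lymphocyte markers summed to 0.264 to 1.21 CPM in the tumors and 1.31 and 2.30 CPM in the glands, and 8 of 18, among them Cd3g, Ms4a1 and Igkc, had at most 3 reads in every library. No lymphocyte, adipocyte, or muscle, nerve and skin marker on the lists was called by edgeR's quasi-likelihood test (2, 1 and 0 at an unadjusted p under 0.05, and 1, 1 and 0 by DESeq2). Outside the lists some T-cell receptor genes were called lower and 0 higher. These were 2 constant genes (6 not called), 1 joining gene (13 not called) and 1 variable gene (12 not called). Adipoq, which defines adipocytes, had at most 3 reads in every library. Postn, Thy1, Mcam and Cspg4 were lower and stand on these lists. Basal epithelial cells are also known to express Thy1 and Mcam, and which cells these reads came from was not tested. Without gland replicate 2 Thy1 was the 1 marker of the fibroblast, endothelial and macrophage lists still called, but it was called neither without gland replicate 1 nor without tumor replicates 1 or 2, and at an unadjusted p under 0.05 these lists had 0, 1 and 1 genes higher and 3, 3 and 1 lower. Leaving out tumor replicates 1 or 2 left 0 fibroblast markers called, with 1 endothelial marker lower in each of these fits.

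Outputs of growth factor signalling gave few calls. Of 23 genes of ERK feedback and output, Spry1 was higher (log2 fold change 0.80) and Spred2 and Dusp6 were lower (log2 fold changes -0.92 and -0.86). The ERK median of -0.05 had no stable sign, with -0.31 without gland replicate 2, 0.36 without gland replicate 1, 0.01 without tumor replicate 1 and 0.15 with all WT glands as the control. Immediate early genes gave 4 lower of 19 (median -0.80). Egr2 had tumor levels of 2.7, 3.19 and 3.43 CPM and gland levels of 18 and 21.7 CPM (log2 fold change -2.67, SE 0.57, adjusted p = 0.00656). Klf4 had 30.6, 36.8 and 38.6 CPM against gland levels of 86.7 and 125 CPM (log2 fold change -1.58, SE 0.38, adjusted p = 0.0154). Jun had 195, 245 and 232 CPM against 331 and 448 CPM (log2 fold change -0.80, SE 0.24, adjusted p = 0.0629), with the tumors close together and below both glands. Among 22 genes on the list of PyMT effector partners, which need not bind PyMT itself, Pik3r1, the regulatory subunit of phosphatidylinositol 3-kinase, was higher. Pik3r1 had 526, 504 and 272 CPM in hyperplasia against 145 and 223 CPM in glands (log2 fold change 1.24, SE 0.40, adjusted p = 0.0824). Gab1 and Tead1 of this list were lower (log2 fold changes -0.73 and -0.86). Genes of the ATF4 and amino acid stress response gave 5 lower of 26 (median -0.67), led by Slc7a3, an arginine transporter, with 1.25, 2.22 and 2.96 CPM in the tumors and 8.24 and 14.9 CPM in the glands (log2 fold change -2.44, SE 0.54, adjusted p = 0.00849). Of 39 interferon-stimulated genes 1 was higher and 1 lower, a share of 5.13% and under the background. Ifit2, the higher one, had tumor levels of 11, 9.06 and 11.9 CPM and gland levels of 3.78 and 3.66 CPM (log2 fold change 1.52, SE 0.42, adjusted p = 0.0356). Ifi27l2a had 0.106, 0.376 and 0.117 CPM against gland levels of 0.724 and 7.69 CPM. The median of -0.50 turned to 0.48 without gland replicate 2. Of 17 genes of antigen presentation H2-DMb1 was lower (log2 fold change -1.89), and Ciita, at most 3 reads in either gland, was higher, with 0.778, 0.478 and 0.411 CPM against 0.0679 and 0.0547 CPM.

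Most of these calls on signalling, stress and immune genes were lost without gland replicate 2. Egr2 was the 1 gene of these 6 lists still called there, and the median of the immediate early genes was then -0.37. Of the ATF4 list 0 were lower in that fit (3 at an unadjusted p under 0.05), and Slc7a3 had an adjusted p of 0.192. Leaving out another library left 2 to 5 of the ATF4 list and 2 to 4 of the immediate early genes lower, while a fit of the 5 libraries alone called 13 of the ATF4 list lower and DESeq2 on all libraries 7. The other 4 lists had 0 calls without gland replicate 2. At an unadjusted p under 0.05 they had 0 higher and 3 lower (ERK output), 2 and 0 (PyMT partners), 3 and 0 (interferon-stimulated) and 1 and 2 (antigen presentation).

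**Figure D5:**
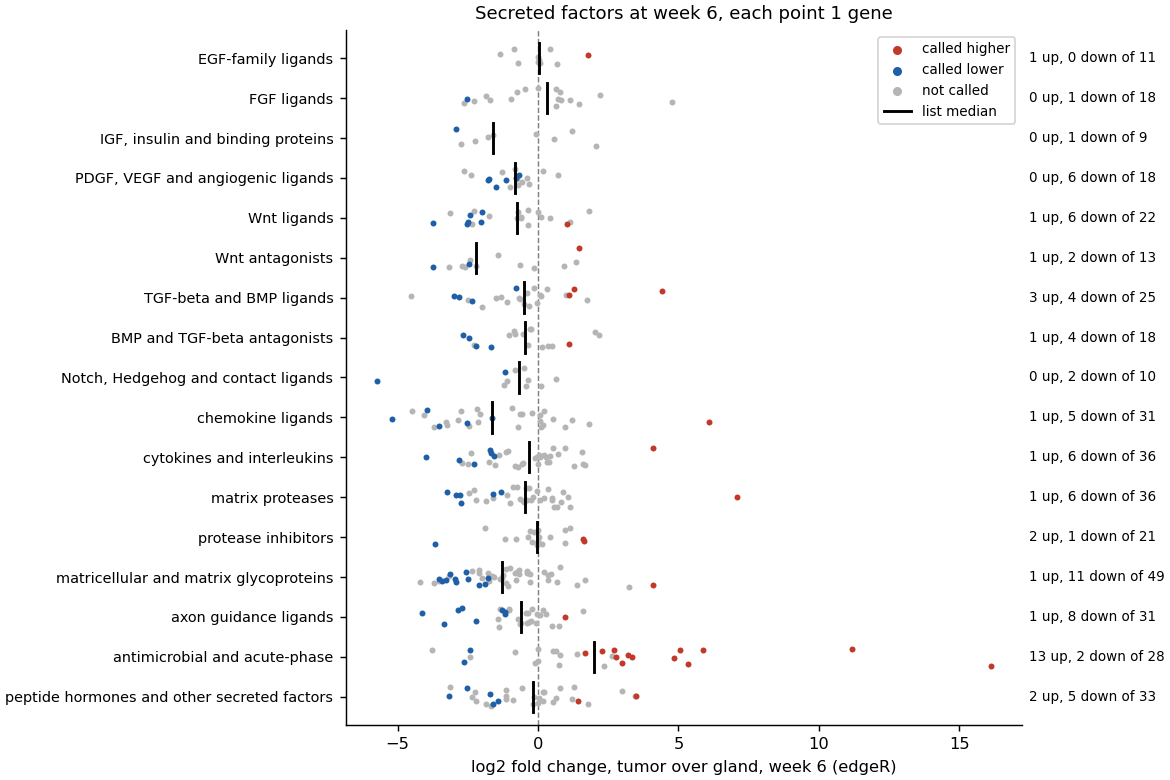
Log2 fold change (tumor over gland, edgeR) of the tested genes of 17 lists of secreted factors at week 6, 1 point per gene, with list medians as bars and calls as colours. Only the antimicrobial and acute-phase list has a median above 1 (1.98), and the Wnt antagonists have the lowest median (-2.19). The fold of Saa2 (far right) depends on the prior count.

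Secreted factors changed in both directions. Over 17 lists, 407 different genes were tested, and 70 were lower and 28 higher, a called share of 24.1%, against 9.34% of all protein-coding genes, 30% of the genes on the function lists and 22.9% of those on the lineage lists. Wnt ligands gave 6 lower and 1 higher of 22 (median -0.75), and leaving out any 1 library left 4 to 6 lower. The median was -1.61 and -1.27 without tumor replicates 1 and 2 and -1.25 without gland replicate 1. The gene lost without gland replicate 2 was Wnt10b, with a log2 fold change of -1.32 (adjusted p = 0.381). Wnt4, a progesterone target, had 3.42, 3.6 and 3.43 CPM in hyperplasia against 16.7 and 23.8 CPM in glands (log2 fold change -2.54, SE 0.38, adjusted p = 0.000365). Wnt5a, a non-canonical ligand, had 16.1, 13.7 and 18.9 CPM in the tumors and 57.8 and 114 CPM in the glands (log2 fold change -2.41, SE 0.36, adjusted p = 0.000402). Wnt10b had tumor levels of 1.89, 1.11 and 2.96 CPM and gland levels of 4.91 and 17.1 CPM (log2 fold change -2.48, SE 0.48, adjusted p = 0.00323). Wnt6 had 0.145, 0.0341 and 0.147 CPM against gland levels of 1.47 and 1.44 CPM (log2 fold change -3.74, SE 0.81, adjusted p = 0.00812). Wnt10a and Wnt11 were the other 2 lower genes (log2 fold changes -1.99 and -2.02). Wnt5b went the other way, with 114, 100.2 and 92.7 CPM against 52.3 and 47.6 CPM (log2 fold change 1.03, SE 0.19, adjusted p = 0.00221), so that the paralogs Wnt5a and Wnt5b changed in opposite directions. All 7 genes had tumors and glands that did not overlap.

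Wnt antagonists gave 2 lower and 1 higher of 13. Dkk2 had 6.03, 2.42 and 19.5 CPM in hyperplasia against 82.3 and 162 CPM in glands (log2 fold change -3.73, SE 0.68, adjusted p = 0.00207). Dkk3 had 28.3, 22.1 and 38.7 CPM in the tumors and 174 and 152 CPM in the glands (log2 fold change -2.46, SE 0.76, adjusted p = 0.0677), whereas Sfrp1, a secreted decoy of frizzled, had tumor levels of 40, 22.4 and 20.8 CPM and gland levels of 8.53 and 11.5 CPM (log2 fold change 1.47, SE 0.46, adjusted p = 0.0685). The list's median of -2.19 was -0.05 without gland replicate 2. Among TGF-beta and BMP ligands 3 were higher and 4 lower of 25. Gdf5 had 3.85, 2.68 and 3.11 CPM against gland levels of 0.272 and 0.0365 CPM (log2 fold change 4.43, SE 0.56, adjusted p = 0.000115). Tgfb2 had 52.4, 59.3 and 55.5 CPM against 27.4 and 24.5 CPM (log2 fold change 1.10, SE 0.23, adjusted p = 0.00508). Tgfb3 had 294, 238 and 173 CPM in hyperplasia against 90.7 and 101 CPM in glands (log2 fold change 1.29, SE 0.38, adjusted p = 0.0509). All tumors lay above both glands for these 3 ligands. Bmp7 was lower, with 5.22, 3.72 and 6.96 CPM in the tumors and 37.8 and 46.2 CPM in the glands (log2 fold change -2.99, SE 0.58, adjusted p = 0.00319), as were Inha, Bmp3 and Tgfb1 (log2 fold changes -2.35, -2.81 and -0.77). Their antagonists and binding proteins gave 4 lower and 1 higher of 18. Ltbp2 had tumor levels of 1464, 1268 and 1348 CPM and gland levels of 646 and 612 CPM (log2 fold change 1.11, SE 0.28, adjusted p = 0.0207). Ltbp4, of the same family of latent TGF-beta binding proteins, had 2.02, 2.32 and 1.7 CPM against gland levels of 8.37 and 10.1 CPM (log2 fold change -2.19, SE 0.44, adjusted p = 0.00407).

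The TGF-beta and Wnt antagonist calls were fewer with a library left out. Without gland replicate 2 Gdf5 was the 1 ligand called higher and Bmp7 the 1 called lower, so Tgfb2, Tgfb3, Inha, Bmp3 and Tgfb1 lost their calls. Dkk2 was the 1 Wnt antagonist lower there, and 2 TGF-beta antagonists were, Ltbp4 and Bmper. In both antagonist lists 0 were higher in that fit (1 and 1 at an unadjusted p under 0.05). Leaving out another library gave 2 to 3 higher and 2 to 4 lower ligands, 2 to 3 lower TGF-beta antagonists and 1 lower Wnt antagonist.

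Growth factors of other families moved in few members, and the EGF and FGF lists were called at 9.09% and 5.56%, no more than the background of 9.34%. Of 11 EGF-family ligands Epgn was higher, with 17.4, 23.1 and 21.6 CPM against 9.3 and 2.81 CPM (log2 fold change 1.78, SE 0.47, adjusted p = 0.0273). Of 18 FGF ligands Fgf21 was lower, with 0.106, 0.137 and 0.264 CPM in hyperplasia against 0.52 and 1.33 CPM in glands. Of 9 IGF and insulin genes Igfbp6 was lower, with 0.185, 0.222 and 0.235 CPM in the tumors and 1.24 and 1.97 CPM in the glands. PDGF, VEGF and other angiogenic ligands gave 6 lower of 18, with a median of -0.81. Vegfc had tumor levels of 10.5, 5.56 and 15.2 CPM and gland levels of 37.5 and 21 CPM (log2 fold change -1.49, SE 0.34, adjusted p = 0.0114). Pdgfc had 36.6, 32.9 and 40.1 CPM against gland levels of 57.3 and 69.4 CPM (log2 fold change -0.80, SE 0.23, adjusted p = 0.05). Vegfa had 90.4, 98.4 and 103 CPM against 132 and 177 CPM (log2 fold change -0.67, SE 0.21, adjusted p = 0.0767). All 3 tumors lay below both glands for 14 of the 18. Hgf, the ligand of Met, had 0.805, 0.358 and 1.12 CPM in hyperplasia against 2.33 and 2.7 CPM in glands (log2 fold change -1.75, SE 0.47, adjusted p = 0.0343). Among Notch and Hedgehog ligands Jag1 was lower, with 346, 414 and 473 CPM in the tumors and 939 and 919.8 CPM in the glands (log2 fold change -1.18, SE 0.37, adjusted p = 0.0713), and Shh had 0 reads in the tumors and 0.0226 and 0.219 CPM in the glands, at least 2.02-fold higher in the glands when 3 reads per library are set for the tumors. Leaving out gland replicate 2 or tumor replicate 2 left 1 of the angiogenic ligands called, and leaving out tumor replicate 1 left 3. In the first of these fits the 1 was Vegfc, which was not called without gland replicate 1, and 0 EGF, FGF, IGF and Notch or Hedgehog genes were called, with 1, 0, 2 and 0 higher and 2, 1, 3 and 1 lower at an unadjusted p under 0.05.

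Chemokines gave 5 lower and 1 higher of 31 (median -1.65, and 0.42 without gland replicate 2). The 1 higher gene was Ccl20, the ligand of Ccr6, with tumor levels of 9.88, 8.57 and 6.75 CPM and gland levels of 0.136 and 0.109 CPM (log2 fold change 6.08, SE 0.66, adjusted p = 2e-05), and it was called in every alternative fit tried. Cxcl12, the ligand of Cxcr4, had 14.7, 13.2 and 18.5 CPM against gland levels of 139 and 39.7 CPM (log2 fold change -2.53, SE 0.60, adjusted p = 0.015). Cxcl14 had 19, 13.5 and 17.8 CPM against 37.2 and 67.9 CPM (log2 fold change -1.65, SE 0.39, adjusted p = 0.0136). Cxcl11 had 0.171, 0.119 and 0.734 CPM in hyperplasia against 1.7 and 5.7 CPM in glands (log2 fold change -3.53, SE 0.73, adjusted p = 0.00564). For Cxcl12 it was gland replicate 1 that stood highest. Cytokines gave 6 lower and 1 higher, Spp1, of 36. Il33, an alarmin, had 1.29, 0.683 and 2.76 CPM in the tumors and 13.3 and 36.2 CPM in the glands (log2 fold change -4.00, SE 0.91, adjusted p = 0.0115). Il11 had tumor levels of 4.75, 4.68 and 6.28 CPM and gland levels of 8.82 and 25.1 CPM (log2 fold change -1.70, SE 0.37, adjusted p = 0.00842). Gland replicate 2 was the higher gland for both. Tnfsf10, the TRAIL gene, had 5.82, 5.45 and 7.48 CPM against gland levels of 18.2 and 21.6 CPM (log2 fold change -1.67, SE 0.44, adjusted p = 0.028). The tumors lay below both glands in these 3. With gland replicate 2 left out, 1 chemokine, Cxcl12, and 1 cytokine were called lower, and Il33, Il11 and Tnfsf10 lost their calls. Cxcl12 in turn was not called without gland replicate 1. Without tumor replicates 1 or 2 there were 3 and 3 lower cytokines.

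Matrix proteases gave 6 lower and 1 higher of 36 (median -0.47). Adam19 had 3.44, 2.63 and 8.72 CPM against 49.4 and 42.1 CPM (log2 fold change -3.23, SE 0.59, adjusted p = 0.00193). Mmp14, a membrane-bound activator of Mmp2, had 226, 158 and 279.9 CPM in hyperplasia against 484 and 612 CPM in glands (log2 fold change -1.31, SE 0.30, adjusted p = 0.0124). Adamts2, a procollagen peptidase, had 2.24, 1.5 and 1.7 CPM in the tumors and 9.03 and 15.5 CPM in the glands (log2 fold change -2.75, SE 0.65, adjusted p = 0.0146). The tumors lay below both glands in all 3. Mmp7, matrilysin, had tumor levels of 0.528, 0.0683 and 0.352 CPM and gland levels of 0 and 0 CPM, at least 5.16-fold higher in the tumors on the same floor. Protease inhibitors gave 2 higher and 1 lower of 21, Serpine2 and Wfdc18 against Serpina3n. Serpine2 had 299, 187 and 258 CPM against gland levels of 105 and 53.6 CPM (log2 fold change 1.65, SE 0.36, adjusted p = 0.00857). Wfdc18 had 956, 657 and 738 CPM against 243 and 278 CPM (log2 fold change 1.59, SE 0.46, adjusted p = 0.0509). Serpina3n had 3.11, 1.33 and 0.968 CPM in hyperplasia against 9.89 and 36.3 CPM in glands (log2 fold change -3.65, SE 1.02, adjusted p = 0.0404). The glands and the tumors were apart in all 3. Leaving out gland replicate 2 left 1 matrix protease, Adam19, called lower (list median -0.30) and 0 higher (3 at an unadjusted p under 0.05), and it left 0 protease inhibitors called (2 higher and 2 lower at an unadjusted p under 0.05).

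Axon guidance ligands, which also pattern ducts, gave 8 lower and 1 higher of 31. Slit2 had 8.84, 4.59 and 10.6 CPM in the tumors and 32.5 and 72.6 CPM in the glands (log2 fold change -2.72, SE 0.49, adjusted p = 0.00189). Slit3 had tumor levels of 0.818, 0.666 and 0.851 CPM and gland levels of 4.64 and 11 CPM (log2 fold change -3.33, SE 0.66, adjusted p = 0.00399), whereas Ntn1, netrin-1, was higher, with 323, 331 and 310.2 CPM against gland levels of 193 and 137 CPM (log2 fold change 0.97, SE 0.19, adjusted p = 0.00433). Bdnf, a neurotrophin, had 5.14, 2.15 and 6.75 CPM against 25.6 and 17.3 CPM (log2 fold change -2.20, SE 0.50, adjusted p = 0.0109). For Ntn1 the tumors lay above both glands, and for the other 3 they lay below. Of 33 peptide hormones and other factors 2 were higher and 5 lower. Nucb2, the precursor of nesfatin, had 89.2, 72.4 and 87 CPM in hyperplasia against 39.6 and 22.2 CPM in glands (log2 fold change 1.42, SE 0.28, adjusted p = 0.00398). Lrg1 had 28.2, 19.4 and 6.19 CPM in the tumors and 0.475 and 2.72 CPM in the glands (log2 fold change 3.47, SE 1.00, adjusted p = 0.0464). Apoe, a lipid carrier, had tumor levels of 11.1, 6.16 and 9.27 CPM and gland levels of 21.6 and 79.5 CPM (log2 fold change -2.52, SE 0.64, adjusted p = 0.0226). Gland replicate 2 was the higher gland for Lrg1 and Apoe and the lower one for Nucb2. Without gland replicate 2 there were 3 lower guidance ligands, Slit2, Bdnf and Efnb1, and 0 higher (2 at an unadjusted p under 0.05), so Slit3 and Ntn1 lost their calls. Of the peptide hormones and other factors 0 were then called (2 higher and 4 lower at an unadjusted p under 0.05). Leaving out another library left 4 to 6 guidance ligands lower, and 1 to 2 hormones and other factors higher and 2 to 4 lower.

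Among lncRNA genes 123 of 7044 (1.75%) were called, against 1865 of 19970 protein-coding genes (9.34%), and the called ones were low, with a median of 0.601 CPM against 15.2 CPM. For 45 of the 123 at least 1 group had at most 3 reads in every library. Of the lncRNA genes higher in tumors, BC016548 had 4.62, 3.65 and 2.93 CPM against gland levels of 0.158 and 0.802 CPM (log2 fold change 2.93, SE 0.51, adjusted p = 0.00144) and lies 22644 bases from Elf5. Gm29680 had 1.29, 1.55 and 1.47 CPM against 0.136 and 0.182 CPM (log2 fold change 3.15, SE 0.55, adjusted p = 0.00131). Gm20275 had 2.82, 2.61 and 1.79 CPM in hyperplasia against 0.317 and 0.2 CPM in glands (log2 fold change 3.23, SE 0.51, adjusted p = 0.000632), while Myo9a, which it overlaps on the other strand, was lower. BC023719 had 3.02, 3.5 and 0.0587 CPM in the tumors and 0.0226 and 0.0182 CPM in the glands, high in tumor replicates 1 and 2 and near 0 elsewhere. Tbx3os1 and Tbx3os2, beside the transcription factor gene Tbx3, were lower (log2 fold changes -4.75 and -4.34). Tbx3os2 had tumor levels of 0.119, 0.119 and 0.176 CPM and gland levels of 1.4 and 4.12 CPM. Gm47163, which overlaps Shc2, had 0.185, 0.102 and 0.264 CPM against gland levels of 1.29 and 2.82 CPM (log2 fold change -3.52, SE 0.77, adjusted p = 0.00857). Of 58 lncRNA genes known from the literature 2 were higher, Gm50337 and A730020E08Rik, and 4 lower, with a median of -0.02. The study itself reported both higher genes as raised in WT tumors from these same data, so their calls are no independent recovery. Carmn, a smooth muscle lncRNA, had 2.28, 3.02 and 5.81 CPM against 16.8 and 19.7 CPM (log2 fold change -2.32, SE 0.49, adjusted p = 0.00614). Meg3, an imprinted lncRNA, had 0.646, 0.495 and 0.499 CPM in hyperplasia against 2.56 and 1.6 CPM in glands (log2 fold change -1.91, SE 0.53, adjusted p = 0.0391). On gland replicate 1 alone 15 lncRNA genes were called, with BC016548, Gm29680, Gm20275, Tbx3os2 and Carmn among them. BC023719, Tbx3os1, Gm47163, Gm50337, A730020E08Rik and Meg3 were not. The other omissions left 51 to 98.

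The nearest protein-coding gene of each called lncRNA gene was looked up, a count added after values were seen. Where several genes overlapped, the one with the smallest p was taken, for called and uncalled lncRNA genes alike. A gene could be the neighbour of several lncRNA genes, as Nucb2 and Tbx3 were, so the pairs are not separate observations. Of 65 lncRNA genes higher in tumors, 14 (21.5%) had a higher neighbour, against 4.32% of all 7034 lncRNA genes with a position. Of 58 lower ones, 24 (41.4%) had a lower neighbour, against 9.67%. The genes overlapped in 8 of these 14 pairs and in 14 of these 24. The counting strand is not given in the sources used here, so reads of overlapping genes may have been counted for either. Among the pairs that do not overlap, 4 picked after their values were seen were BC016548 with Elf5, Gm50337 with Scd1, Gm50322 with Incenp (3301 bases, same strand) and Dio3os with Dio3 (896 bases).

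The largest single changes were checked outside the lists. Pipox, pipecolic acid oxidase, had 2.15, 2.32 and 1.26 CPM in the tumors and 0 and 0.0182 CPM in the glands, with at most 1 read in either gland. Cyp1a1, a target of the aryl hydrocarbon receptor, had tumor levels of 4.18, 14.5 and 1.09 CPM and gland levels of 0.204 and 0.0911 CPM (log2 fold change 5.49, SE 1.49, adjusted p = 0.034), with tumor replicate 2 far above the others. Rps18-ps5 and Rps18-ps6, close copies of a ribosomal protein gene, were called higher. Rps18-ps6 had 62.1, 98.1 and 0.0293 CPM against gland levels of 0.0226 and 0.0182 CPM, and Rps18-ps5 had 25.2, 38.5 and 0.382 CPM against 0.339 and 0.292 CPM. They were high in tumor replicates 1 and 2 and at gland level in replicate 3, and counts of such copies are uncertain. Cyp1a1 and both copies were not called without gland replicate 2 (adjusted p = 0.39, 0.187 for Rps18-ps6 and 0.215 for Rps18-ps5). Among the lower genes Slc14a1, a urea transporter, had 0.0528, 0.0171 and 0 CPM in hyperplasia against 0.928 and 1.17 CPM in glands (log2 fold change -5.10, SE 0.71, adjusted p = 0.000234). Amtn, an enamel protein gene, had 0.224, 0 and 0.0293 CPM in the tumors and 0.226 and 8.47 CPM in the glands, with gland replicate 1 level with tumor replicate 1 (log2 fold change -5.47, SE 1.29, adjusted p = 0.014), and it was not called without gland replicate 2.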

How the data were processed

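The authors aligned stranded, rRNA-depleted total RNA reads with HISAT to Gencode M16 transcripts and GRCm38 with reporter sequences, removed amplification duplicates with Picard 1.128 and counted the rest per gene with HTSeq. Removing duplicates can lower the counts of the most abundant genes. Per the labels R 3.6.2 and DESeq2 were used on these counts. The deposited files hold raw counts per gene for 33 libraries (55487 genes, beside 111 spike-in, reporter and transgene rows with 0.0778% of reads, left out of library sizes) and a normalized signal. It was used only as an alternative: in 31 libraries all values were counts divided by 1 size factor per library (whole reads at a tolerance of 0.01), and edgeR on these called 2261 genes. The other 2 columns gave no whole reads and were left out.

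Counts were fitted with edgeR 4.0.16 (R 4.3.3, TMM, quasi-likelihood test) over all 33 libraries and 14 conditions, for genes with at least 10 reads summed. Calls needed a fold change above 1.5 in either direction and p-values under 0.1 after Benjamini-Hochberg adjustment over all genes. Standard errors were derived from each log2 fold change and its F statistic. DESeq2 1.42.0, the normalization, the filter, the control glands, a replicate block and leaving out libraries were tried as alternatives. The script was tested on simulated counts. Promoter windows came from RefSeq (GRCm38.p6) and positions from Gencode M21.

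The comparison, the 48 gene lists and the tests were chosen with earlier results of these data known, so no count is independent evidence of a pattern seen before. Genes were named by this rule: the study's genes (Pthlh, Scd1, Gm50337 and the transgene), the 10 protein-coding and 6 lncRNA genes with the largest changes in each direction (mean of at least 1 CPM in the higher group, groups apart), up to 4 called members of each list in each direction by adjusted p, and epithelial markers. Other members of the lists, such as Mki67, Acta2, Chil1, Esr1, Trp63, Kit, Fasn or Col1a1, were named after their values were seen. The text describes part of the genes the rule picked, and the others, on many of the lists, are not reported here.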

Additional observations from a re-analysis of the deposited data

How the results depend on the processing

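The number of DEGs at week 6 moved most with single libraries. Leaving out 1 library at a time, with a lone gland assumed to vary like the other groups, gave 494 to 1820 DEGs in all, 155 to 749 higher, 339 to 1071 lower, 467 to 1605 protein-coding and 15 to 98 lncRNA genes, against 2139, 849, 1290, 1865 and 123. The totals were 1228, 1024 and 1820 without tumor replicates 1, 2 and 3, and 1533 and 494 without gland replicates 1 and 2. Of the 494, 477 were among the 2139. The difference between week 6 and the later weeks gave 0 to 2 genes when 1 library was left out, 3 with DESeq2 and 11 with no filter on low counts. DESeq2 called 1276 genes higher and 213 lncRNA genes, a fit of only the 5 libraries called 1275 higher, and edgeR's filterByExpr left 195 lncRNA genes called. With all WT glands of weeks 6 to 12 as the control, 3356 genes were called in all, 1495 higher and 329 of lncRNA, and 1887 of the 3356 were among the 2139. The cause of these shifts was not tested, apart from fewer libraries where 1 was left out. Of 194 DEGs named by the rule, 60 were still called without gland replicate 2 and 194 kept their sign, while 2 of the 2139 DEGs turned in sign there.

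The replicate numbers did not pair tumors with glands: the deviations of same-numbered libraries from their group means correlated at -0.295 and -0.0492. With the replicate number as a block 1975 genes were called, 1881 of them among the 2139.

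Depth limits the low genes, since 0 reads allow up to 3. Floors cover counting error only. With 3 and 2 libraries an exact permutation test of a single value cannot give a p below 0.1, so single values rest on the fit across all genes.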

Other observations

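Mast cell genes stood among the largest decreases and were gathered as a set after their values were seen. Of 12 such genes 6 were lower in the tumors, and in 9 all 3 tumors lay below both glands. Cma1, a chymase, had 0 reads in the tumors and 0.882 and 2 CPM in the glands, at least 24.2-fold lower in the tumors when 3 reads per library are set for them. Tpsab1 and Tpsb2, tryptase genes that are close copies of each other, were both called lower. Tpsab1 had tumor levels of 0.0264, 0.0171 and 0 CPM and gland levels of 2.29 and 10.7 CPM, and Tpsb2 had 0.0264, 0.0341 and 0 CPM against gland levels of 1.76 and 5.38 CPM. Cpa3, the mast cell carboxypeptidase, had 0.0396, 0.0512 and 0 CPM against 0.769 and 1.49 CPM. These levels are low, gland replicate 2 was the higher gland in each, and Kit and Gata2, which epithelial cells also express, were not called. On gland replicate 1 alone edgeR called 1 of the set, Cma1 (adjusted p = 0.0986), and Tpsab1 and Tpsb2 were not called (adjusted p = 0.255 and 0.168), with 6 lower at an unadjusted p under 0.05. Without tumor replicates 1, 2 or 3 the test called 3, 2 and 3 of the set lower.

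Tbx3, a transcription factor of hormone-sensing cells, lies beside Tbx3os1 and Tbx3os2 and was singled out after its value was seen. It had 3.8, 1.96 and 10.5 CPM in hyperplasia against 43.1 and 106 CPM in glands (log2 fold change -3.80, SE 0.63, adjusted p = 0.000894), with all tumors below both glands. Both neighbouring lncRNA genes were called lower, although Tbx3os1 was not called without gland replicate 2 (adjusted p = 0.252), and Tbx3os1 overlaps Tbx3, so some reads may have been counted for either gene.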
